A study of Mus musculus with 7 samples.

Results

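PC-3F cells were primary mouse cerebral pericytes transduced with viruses that carried Olig2, Sox10 and Nkx6.2, and all genes of PC-3F were set here against PC, the pericytes without transduction. Both populations came from the brain of C57BL/6 mice. The age and number of the animals are not given in the sources used here. The cells compared were all droplet barcodes with 500 or more unique molecular identifiers (UMIs), which kept 147 of 147 barcodes of PC-3F and 290 of 296 barcodes of PC. Together they made 437 of the 1124 cells kept over the 7 libraries of the series. PC were grown in pericyte medium and, per the labels, induced cells in medium for oligodendrocyte progenitor cells (OPCs), so the factors and the medium cannot be told apart. Each population was 1 library, so no difference below has a replicate check, none was tested and no p-value is given.

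Pericytes are mural cells that wrap the capillaries of the brain, share a basement membrane with the endothelium and signal through the PDGF receptor Pdgfrb. OPCs are dividing glial precursors that carry the receptor Pdgfra and the NG2 proteoglycan, encoded by Cspg4, and mature into oligodendrocytes that wrap axons in myelin. Olig2 and Nkx6.2 help to pattern the ventral neural tube and its oligodendrocyte lineage, and Sox10 drives glial genes in OPCs, oligodendrocytes and the neural crest, from which Schwann cells also arise. The study's stated subject is the direct conversion of fibroblasts and pericytes into induced OPCs, and the comparison asks which genes set the converted cells apart from the donor population.

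Both libraries hold 3′ ends of transcripts counted by UMIs on the ddSEQ droplet system. The deposited values are not UMI counts as they stand, and every level here rests on reading them as places in a text-sorted list of counts, an inference that no label states. PC-3F held 635786 UMIs with a median of 4124 per cell (983 to 11446), against 1293192 UMIs with a median of 3775 per cell (615 to 17173) in PC. Levels are UMIs summed over the cells of a library scaled to 1e6 UMIs of that library (CPM), so fewer cells with a transcript and less of it per cell cannot be told apart. Bracketed ranges after a value are exact 95% intervals for counting error alone, and a count of 0 allows up to 3 UMIs, which is 4.72 CPM in PC-3F and 2.32 CPM in PC. No barcode was shared between the libraries. The mitochondrial share of UMIs was 0.785% in PC-3F and 0.137% in PC, and the ribosomal protein share 8.83% in PC-3F and 10.1% in PC. The PC table joins 2 barcode blocks, of 39 and 251 kept cells, which the labels do not explain.

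The labelled cell types were checked against panels of defining markers. Of 9 pericyte markers 5 were detected in PC-3F and 5 in PC, with a summed level of 1479 CPM in PC-3F and 416 CPM in PC. Most of the PC-3F sum was Cspg4 at 967 CPM, which OPCs also make, and Mcam at 376 CPM. Rgs5, Kcnj8, Abcc9 and Vtn, which mark pericytes in tissue, had no UMI in PC, so the name rests there mainly on Pdgfrb at 343 CPM. Pdgfrb is also in the fibroblast and mesenchymal panel and does not separate the 2 panels. Of the tissue markers named, only Rgs5 was detected in PC-3F, as a small part of the sum. All 10 oligodendrocyte lineage markers were detected in PC-3F and 3 in PC, at summed levels of 3533 CPM in PC-3F and 42.5 CPM in PC. All 9 mesothelial and epithelial markers were at 0 in PC-3F, while 4 were detected in PC with 609 CPM in sum. Fibroblast and mesenchymal markers were present in both, 9 of 9 in PC-3F and 8 of 9 in PC. Their summed level was higher in PC-3F, at 9003 CPM against 3981 CPM in PC. The Schwann and neural crest panel, which shares Sox10, summed to 1200 CPM in PC-3F and 1.55 CPM in PC. Cartilage markers summed to 3761 CPM in PC-3F and 6.96 CPM in PC, and contractile markers to 222 CPM in PC-3F and 251 CPM in PC. Endothelial, microglial, astrocyte and neuronal panels had at most 2 markers detected in either library, and the largest of these sums was the 486 CPM of Aldoc in PC-3F.

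PC-3F itself was not uniform. Clustered alone, its cells fell into 4 clusters, and cluster 4 held 31 cells (21.1% of cells, 14.8 to 28.6, and 26.4% of UMIs) led by Spp1, Dcn, Nid1, Bgn, S100a6, S100a4 and Thy1. Sox10 stood at 17.9 CPM in cluster 4 and 286 CPM in the other PC-3F cells, Olig2 at 17.9 CPM in cluster 4 and 113 CPM in the other PC-3F cells, and Pdgfrb at 476 CPM in cluster 4 and 4.28 CPM in the other PC-3F cells. The remaining clusters were led by Cspg5 and Sspn (cluster 1, 44 cells), by the mitotic genes Ccna2, Cenpf and Top2a (cluster 2, 31 cells) and by Serpina3n, Enpp2 and Ptgds (cluster 3, 41 cells). Because these genes defined the clusters, their levels per cluster are a description. Values within and outside cluster 4 are given below for some of the genes it carried, not for all.

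Of 14414 genes with a UMI in either library 9199 were measured, meaning a mean of 10 CPM or more over both libraries and 10 UMIs or more in all. A gene counted as higher or lower where it differed by 2-fold or more and its counting interval excluded equal levels. In PC-3F 1654 genes (18% of those measured) were higher and 1293 (14.1%) lower, and 716 (7.78%) were at least 4-fold higher and 403 (4.38%) at least 4-fold lower with intervals wholly beyond 2-fold. The median log2 ratio over all measured genes was 0.04, and 65.7% of them lay within 2-fold. Genes called higher took 24.4% of the UMIs of PC-3F and 5.31% of those of PC, while genes called lower took 6.39% in PC-3F and 22.7% in PC. Of the higher genes 202 had no UMI in PC, and of the lower genes 72 had none in PC-3F. After the counts of a gene list below, brackets give the shares of its measured members called higher and lower, which are 18% and 14.1% over all measured genes, and its median log2 ratio, which is 0.04 over all of them. A gene absent from PC could be measured only through PC-3F, so counts of list members describe what passed and do not stand for the whole list.

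**Figure D1:**
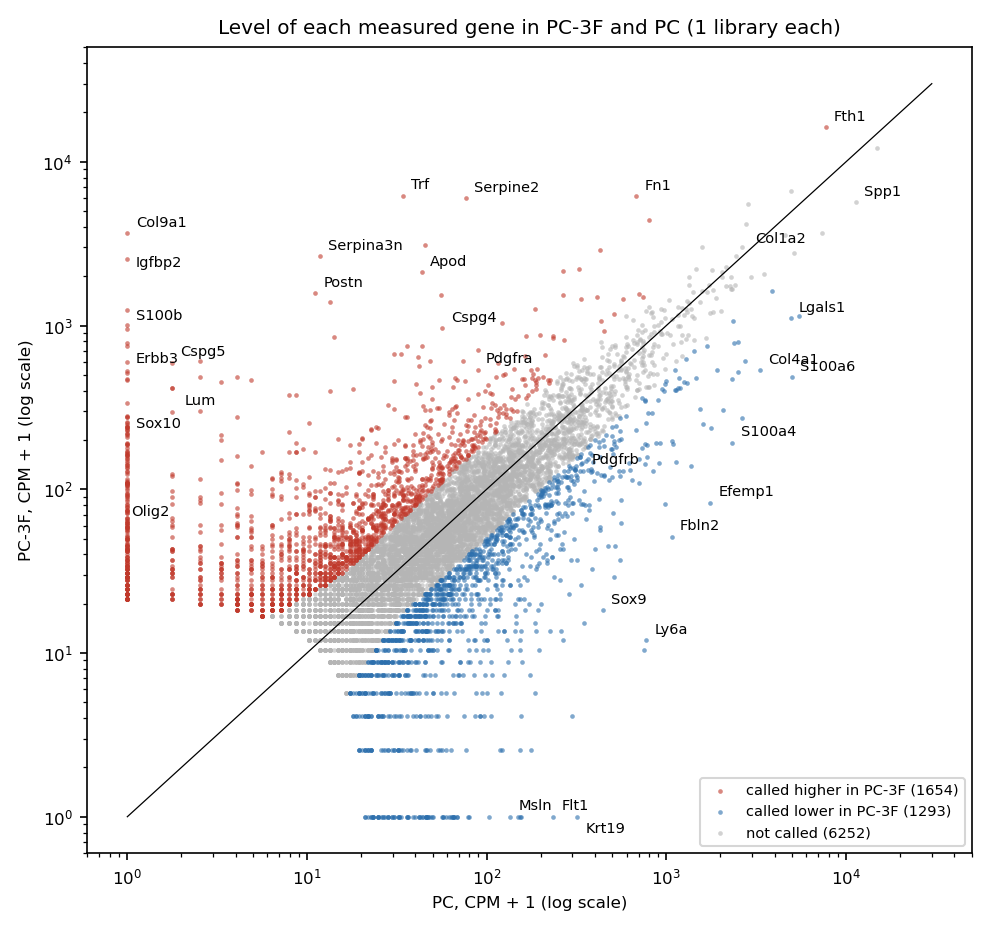
Level of each measured gene in PC-3F (vertical axis) against PC (horizontal axis), both as CPM + 1 on log scales, 1 point per gene and 1 library per axis, with the line of equal levels. The 1654 genes called higher lie above the line with Col9a1 and Igfbp2 at the far left, and the 1293 called lower lie below it with Krt19, Msln and Flt1 at the bottom.

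The transduced genes checked the labels first. Olig2, a helix-loop-helix factor, had 56 UMIs in PC-3F and 0 in PC, and stood at 88.1 CPM (66.5 to 114) in PC-3F, against no UMI in PC. Sox10, an HMG-box factor, had 137 UMIs in PC-3F and 0 in PC, at 215 CPM (181 to 255) in PC-3F, against no UMI in PC. Nkx6-2 had 2 UMIs in PC-3F and 0 in PC, both under the limit of 3 UMIs. The 3′ tags do not separate transcripts of the virus from those of the cell's own genes, and the Nkx6-2 counts therefore check nothing. At 1000 UMIs per cell after thinning, the share of cells with an Olig2 UMI came to 9.59% of PC-3F cells (5.34 to 15.6) and 0% of PC cells (0 to 1.37), and that of Sox10 to 13.7% of PC-3F cells (8.57 to 20.4) and 0% of PC cells (0 to 1.37). In mm10 Olig2 spans chromosome 16, 91225457 to 91228677, and Sox10 chromosome 15, 79154908 to 79165240.

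Genes of the OPC programme were higher in PC-3F and none was lower: of 19 of 33 listed genes that were measured, 16 were called higher (84.2% and 0%, median 5.25), against 18% of all measured genes. The calcium-binding protein gene S100b stood at 1013 CPM (936 to 1094) in PC-3F, against no UMI in PC, at least 437-fold higher. The brain proteoglycan genes were near absent from PC. Cspg5 stood at 593 CPM in PC-3F, against 0.773 CPM in PC (1 UMI), 767-fold higher (137 to 30367), and Bcan at 192 CPM in PC-3F, against no UMI in PC. Ptprz1, a receptor phosphatase whose extracellular part is the proteoglycan phosphacan, was at 135 CPM in PC-3F, against no UMI in PC, and Ncan at 44 CPM in PC-3F, against no UMI in PC. Matn4, a matrilin, was at 245 CPM in PC-3F, against no UMI in PC. Not every listed gene was high in the library of primary OPCs of this series. S100b stood there at 20.5 CPM and Matn4 had no UMI, while Cspg5 was at 524 CPM. Of the receptors, Pdgfra was at 536 CPM in PC-3F, against 88.2 CPM in PC, 6.08-fold higher (4.91 to 7.59), and Cspg4, which pericytes also make, at 967 CPM in PC-3F, against 55.7 CPM in PC, 17.4-fold higher (13.6 to 22.5). Gpr17, a receptor of committed progenitors, stood at 123 CPM in PC-3F, against no UMI in PC. Versican (Vcan) was at 588 CPM in PC-3F and 303 CPM in PC, below the 2-fold line, as were Sox4 and Zeb1. Sox2, a progenitor factor, was too low to be measured, with 12 UMIs in PC-3F and 0 in PC.

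Transcription factors of neural and glial lineages followed the same direction, with 15 of 24 measured genes higher and 2 lower (62.5% and 8.33%, median 1.62), against 18% and 14.1% of all measured genes. Beside the transduced genes these were Olig1, the neighbour and paralog of Olig2, at 159 CPM in PC-3F, against no UMI in PC, and Sox6 and Sox5, SoxD factors that hold OPCs in the progenitor state, at 80.2 CPM in PC-3F, against no UMI in PC, and 91.2 CPM in PC-3F, against 29.4 CPM in PC. Myrf, the factor that switches on myelin genes, stood at 97.5 CPM in PC-3F, against 3.09 CPM in PC, and Zfp536 at 92.8 CPM in PC-3F, against no UMI in PC. The POU factor gene Pou3f1, known from promyelinating Schwann cells, was at 86.5 CPM in PC-3F, against no UMI in PC. Nfia and Nfib, nuclear factor I genes of the gliogenic switch, were already present in PC and were at 357 CPM in PC-3F, against 48.7 CPM in PC, and 307 CPM in PC-3F, against 63.4 CPM in PC. Sox9, a SoxE relative of Sox10 that acts in glial and cartilage progenitors, went the other way at 17.3 CPM (8.64 to 31) in PC-3F, against 442 CPM (406 to 479) in PC, 25.5-fold lower (14.2 to 51.4). Klf9 was also lower, at 11 CPM in PC-3F, against 85.1 CPM in PC.

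Of the genes for myelin and oligodendrocyte differentiation 17 of 24 measured were higher and 2 lower (70.8% and 8.33%, median 3.14), against 18% and 14.1% of all measured genes. Cnp, a myelin-associated phosphodiesterase, stood at 456 CPM in PC-3F, against 29.4 CPM in PC, and the tetraspanin gene Cd9 at 2152 CPM in PC-3F, against 264 CPM in PC. Structural genes of mature myelin were low: Mbp was at 20.4 CPM (10.9 to 35) in PC-3F, against 3.09 CPM (0.843 to 7.92) in PC, and Mag, an adhesion protein of the innermost myelin layer, at 40.9 CPM in PC-3F, against no UMI in PC. Cldn11, the tight-junction claudin of myelin, was at 140.0 CPM in PC-3F, against no UMI in PC, and Mal at 78.6 CPM in PC-3F, against no UMI in PC. Aspa, the oligodendrocyte enzyme that splits N-acetylaspartate, was at 59.8 CPM in PC-3F, against no UMI in PC. The lower members were Sgk1, a serum- and glucocorticoid-induced kinase, at 80.2 CPM in PC-3F, against 986 CPM in PC, and gelsolin (Gsn), which severs actin filaments, at 606 CPM in PC-3F, against 2734 CPM in PC. Neither is specific to oligodendrocytes.

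Of the genes of Schwann cells and neural crest 11 of 18 measured were higher and 1 lower (61.1% and 5.56%, median 2.70), against 18% and 14.1% of all measured genes. Erbb3, the neuregulin receptor of the Schwann lineage, stood at 747 CPM (681 to 817) in PC-3F, against no UMI in PC, at least 322-fold higher. The endothelin receptor gene Ednrb was at 51.9 CPM in PC-3F, against no UMI in PC, with 27.3% of its UMIs from 1 cell, Tfap2a at 36.2 CPM in PC-3F, against no UMI in PC, and Mitf at 59.8 CPM in PC-3F, against 5.41 CPM in PC. Foxd3 and Ngfr were at 0 in both libraries, and Egr2, the factor of myelinating Schwann cells, had 4 UMIs in PC-3F and 0 in PC. Snai1, an inducer of mesenchymal transition, was lower at 9.44 CPM in PC-3F, against 41.8 CPM in PC.

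**Figure D2:**
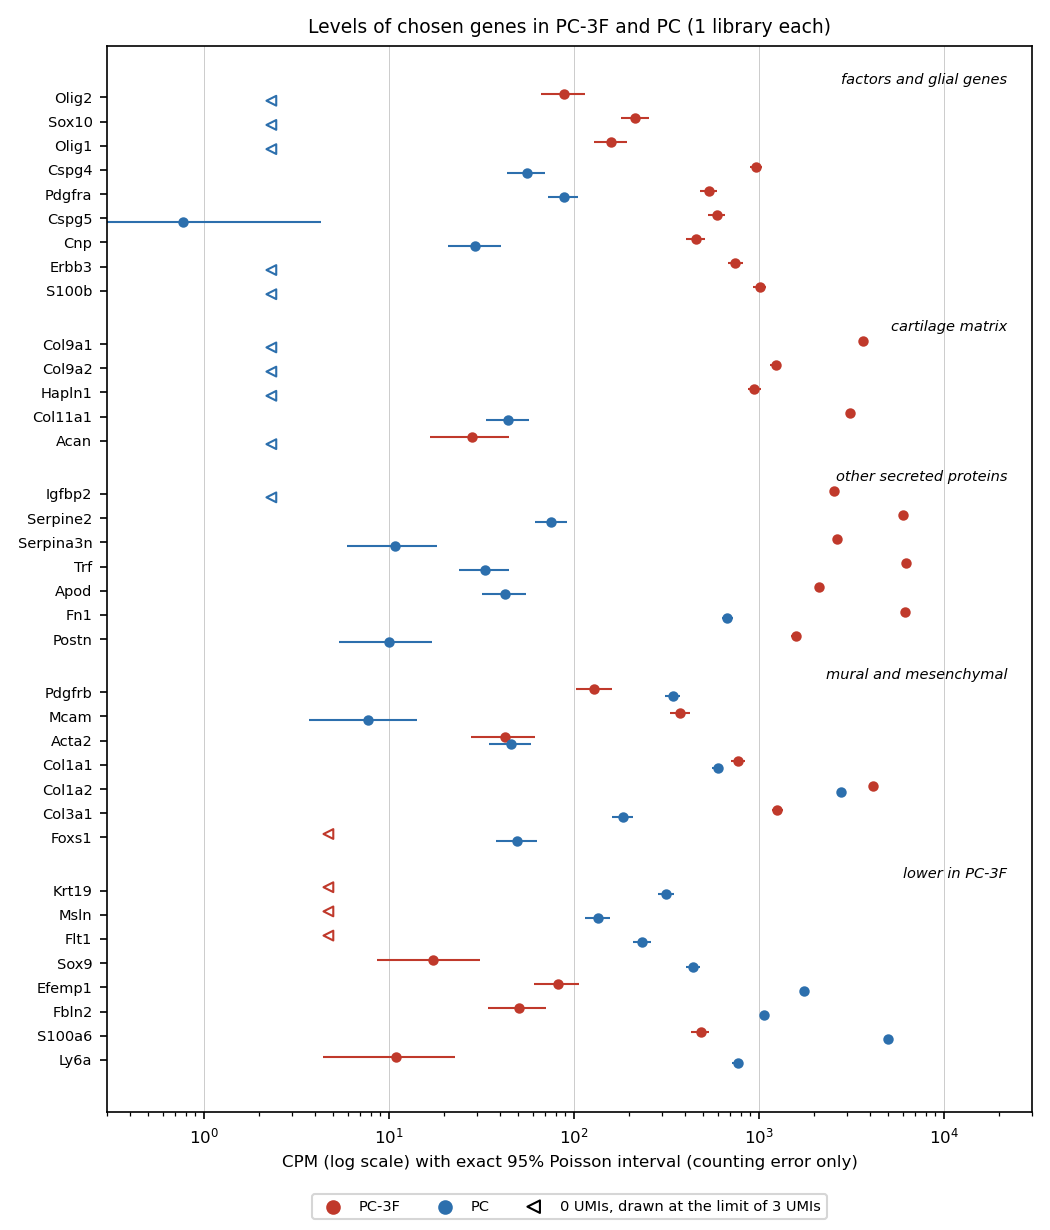
Levels of chosen genes in PC-3F (red) and PC (blue) as CPM on a log axis, 1 library each, with exact 95% Poisson intervals that cover counting error only and open triangles for 0 UMIs drawn at the limit of 3 UMIs. Glial, cartilage and secreted protein genes stand to the right in PC-3F, Acta2 and Col1a1 overlap or lie close, and Krt19, Msln and Flt1 have no UMI in PC-3F.

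The highest ratio of all belonged to a gene of cartilage, and every one of the 9 cartilage matrix genes measured, of 18 listed, was higher (100% and 0%, median 6.77). Col9a1, Col9a2 and Col9a3 encode the chains of collagen IX, which coats the collagen II and XI fibrils of cartilage and vitreous. Col9a1 stood at 3671 CPM (3524 to 3823) in PC-3F, against no UMI in PC, at least 1582-fold higher. Col9a2 was at 1235 CPM in PC-3F, against no UMI in PC, at least 532-fold higher, and Col9a3 at 610.3 CPM in PC-3F, against 1.55 CPM in PC (2 UMIs), 395-fold higher (108 to 3269.9). Collagen XI was present with both chains on the list, Col11a1 at 3097 CPM in PC-3F, against 44.1 CPM in PC, 70.3-fold higher (54 to 93.1), and Col11a2 at 253 CPM in PC-3F, against no UMI in PC. The link protein gene Hapln1, which ties hyaluronan to proteoglycans, was at 948 CPM in PC-3F, against no UMI in PC. The genes that define hyaline cartilage were low in PC-3F, with Col2a1 at 48.8 CPM in PC-3F and 6.96 CPM in PC and aggrecan (Acan) at 28.3 CPM in PC-3F and no UMI in PC, while Comp had no UMI in either library. Collagen IX was mainly a gene of the cells outside cluster 4: Col9a1 stood at 529.8 CPM in cluster 4 and 4799 CPM in the other PC-3F cells.

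Col9a1 and Col9a2 were, with Igfbp2 and S100b, the 4 genes that had no UMI in PC and 1000 CPM or more in PC-3F, and the start regions of these 2 collagen genes are shown because both had no UMI in PC and encode chains of 1 collagen. Each run is 300 bases of RefSeq sequence on GRCm38.p6, plus strand, from 250 bases before to 50 bases after the annotated start, with letters in capitals only where a searched motif matched.
Col9a1, chr1:24177360-24177659: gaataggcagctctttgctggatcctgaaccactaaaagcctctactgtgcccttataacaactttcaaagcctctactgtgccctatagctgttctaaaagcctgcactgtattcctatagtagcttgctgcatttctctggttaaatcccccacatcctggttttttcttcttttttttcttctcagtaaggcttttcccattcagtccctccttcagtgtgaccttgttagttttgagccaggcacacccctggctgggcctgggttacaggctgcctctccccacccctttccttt
Col9a2, chr4:121039316-121039615: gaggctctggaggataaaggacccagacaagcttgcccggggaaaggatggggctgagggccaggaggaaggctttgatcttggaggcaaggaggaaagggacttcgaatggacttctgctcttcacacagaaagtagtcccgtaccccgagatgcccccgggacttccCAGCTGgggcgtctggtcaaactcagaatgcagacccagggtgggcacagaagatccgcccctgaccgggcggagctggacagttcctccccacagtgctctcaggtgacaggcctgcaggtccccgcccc
The motifs searched on both strands were ACAAAG and ACAATG, core letters bound by SOX factors, CAGCTG and CAGATG, E-boxes of the kind bound by helix-loop-helix factors, and TAATTA, a homeodomain core. Col9a1 and Igfbp2 have 2 windows in the table, and the most upstream was taken. Over the windows of the 4 genes 1 match was found, CAGCTG in Col9a2, whose first base is at position -81 from the start. Of all 32851 windows of this length 28.6% held a SOX motif, 30.6% an E-box and 5.29% the homeodomain core. A match is a description of letters and not a binding site, and a window without one says nothing about the factors.

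Collagens and other fibroblast matrix genes went both ways. Of 24 measured genes for fibrillar collagens and their crosslinking 5 were higher and 9 lower (20.8% and 37.5%, median -0.38). The chains of collagen I were within 2-fold, Col1a1 at 772 CPM in PC-3F and 599 CPM in PC and Col1a2 at 4148 CPM in PC-3F and 2791 CPM in PC. Col3a1 was higher at 1259.9 CPM in PC-3F, against 184 CPM in PC, 6.85-fold higher (5.92 to 7.94), and so were the fibril-associated Col12a1 at 396 CPM in PC-3F, against 12.4 CPM in PC and Col16a1 at 563 CPM in PC-3F, against 41 CPM in PC. The crosslinking enzyme gene Lox was lower at 25.2 CPM in PC-3F, against 333 CPM in PC, 13.2-fold lower (8.04 to 23.3), with Loxl1, Loxl2 and Loxl3 also lower. The prolyl hydroxylase genes P4ha2 and P4ha3 were at 6.29 CPM in PC-3F, against 68.8 CPM in PC, and 9.44 CPM in PC-3F, against 94.3 CPM in PC. The beaded-filament collagen gene Col6a3 was 5.47-fold lower (4.55 to 6.62).

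Among the proteoglycans and glycoproteins of fibroblast matrix 9 of 22 measured were higher and 5 lower (40.9% and 22.7%, median 0.80). Fibronectin (Fn1), the cell-binding protein of provisional matrix, was among the most abundant transcripts at 6199 CPM (6007 to 6395) in PC-3F, against 676 CPM (632 to 722) in PC, 9.17-fold higher (8.52 to 9.88). Periostin (Postn) stood at 1582 CPM in PC-3F, against 10.1 CPM in PC, 157-fold higher (91.6 to 297), and fibulin 5 (Fbln5), an elastic fibre protein, at 856 CPM in PC-3F, against 13.1 CPM in PC. The other fibulins on the list were lower, with Fbln2 at 50.3 CPM in PC-3F, against 1069 CPM in PC, 21.2-fold lower (15 to 31.2), and Efemp1 at 81.8 CPM in PC-3F, against 1757 CPM in PC, 21.5-fold lower (16.3 to 28.9). Biglycan (Bgn) was lower at 470.3 CPM in PC-3F, against 2328 CPM in PC, while its relatives decorin (Dcn) and lumican (Lum) were higher at 525 CPM in PC-3F, against no UMI in PC, and 414 CPM in PC-3F, against 0.773 CPM in PC. Cluster 4 carried these relatives: Dcn stood at 1970.3 CPM in cluster 4 and 6.41 CPM in the other PC-3F cells, with 43.4% of its PC-3F UMIs from 1 cell, and Lum at 1345 CPM in cluster 4 and 79.1 CPM in the other PC-3F cells. Biglycan also lay mainly in cluster 4, at 1708 CPM in cluster 4 and 25.7 CPM in the other PC-3F cells. Without cluster 4 the median log2 ratio of the list was -0.39. Fibronectin was abundant in both, at 7042 CPM in cluster 4 and 5896 CPM in the other PC-3F cells. Fbn2, a fibrillin of developing tissue, was at 299 CPM in PC-3F, against 1.55 CPM in PC (2 UMIs), and Mgp, an inhibitor of calcification, was not called at 2218 CPM in PC-3F and 1469 CPM in PC.

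Basement membrane genes had 5 higher and 3 lower members of 16 measured (31.2% and 18.8%, median 0.63). The lower ones were abundant in PC and make up its network. Col4a1 was at 533 CPM (478 to 593) in PC-3F, against 3300.4 CPM (3202 to 3401) in PC, 6.19-fold lower (5.54 to 6.93), Col4a2 at 414 CPM in PC-3F, against 1197 CPM in PC, and nidogen (Nid1), which links collagen IV to laminin, at 308 CPM in PC-3F, against 1533 CPM in PC. The higher ones were laminin chains and agrin: Lama4 was at 253 CPM in PC-3F, against 9.28 CPM in PC, Lamb2 at 211 CPM in PC-3F, against 46.4 CPM in PC, and Agrn at 123 CPM in PC-3F, against 6.96 CPM in PC (with 37.5 CPM in the first and 2.65 CPM in the second barcode block of PC). Sparc, a collagen-binding glycoprotein, stood at 5514 CPM in PC-3F and 2844 CPM in PC, just under the 2-fold line. What nidogen PC-3F had lay in cluster 4, with Nid1 at 1149 CPM in cluster 4 and 6.41 CPM in the other PC-3F cells.

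Protease inhibitors included some of the largest differences in both directions. Serpine2 (protease nexin 1), an inhibitor of thrombin and plasminogen activators made by glia, stood at 6013 CPM (5824 to 6207) in PC-3F, against 75.8 CPM (61.5 to 92.4) in PC, 79.3-fold higher (64.9 to 98). Serpina3n, an acute-phase serpin that has close relatives in the mouse, was at 2658 CPM (2533 to 2788) in PC-3F, against 10.8 CPM (5.92 to 18.2) in PC, 246-fold higher (146 to 450.1), and 12.5% of its UMIs came from 1 cell. Serpinb2, Serpinb8 and Serpinb6a, serpins that stay inside cells, were lower, with Serpinb6a at 129 CPM in PC-3F, against 575 CPM in PC. Of the metalloproteinases and TIMPs 10 of 23 measured were higher and 5 lower (43.5% and 21.7%, median 0.36). Mmp15, a membrane-type enzyme, was at 486 CPM in PC-3F, against 1.55 CPM in PC (2 UMIs), and Mmp2, a gelatinase, at 1442 CPM in PC-3F, against 573 CPM in PC. The TIMP inhibitors went both ways: Timp4 was at 239 CPM in PC-3F, against no UMI in PC, Timp2 at 305 CPM in PC-3F, against 2072 CPM in PC, 6.79-fold lower (5.87 to 7.9), and Timp3 at 37.7 CPM in PC-3F, against 206 CPM in PC.

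Mural genes showed no common direction, with 3 of 10 measured higher and 4 lower (30% and 40%, median -0.06). Pdgfrb was at 129 CPM (103 to 160.1) in PC-3F, against 343 CPM (312 to 377) in PC, 2.66-fold lower (2.1 to 3.41), and nearly all of it lay in cluster 4, as given above. Mcam, an adhesion molecule of vessels and melanoma cells, was at 376 CPM in PC-3F, against 7.73 CPM in PC, 48.6-fold higher (26 to 103). Cd248 (endosialin) was lower at 15.7 CPM in PC-3F, against 115 CPM in PC, and the mural and meningeal forkhead genes Foxd1 and Foxf2 at 11 CPM in PC-3F, against 78.1 CPM in PC, and 14.2 CPM in PC-3F, against 43.3 CPM in PC. Of contractile genes 3 of 16 measured were higher and 6 lower (18.8% and 37.5%, median -0.54). Smooth muscle actin (Acta2) was low in both, at 42.5 CPM (28 to 61.8) in PC-3F, against 45.6 CPM (34.7 to 58.9) in PC, and Tagln was under the filter with 3 UMIs in PC-3F and 19 in PC. Nephronectin (Npnt), an integrin ligand that was on the contractile list, was at least 32.1-fold lower. No mesenchymal or mural transcription factor was called higher, and 12 of 27 measured were lower (0% and 44.4%, median -0.94), against 14.1% of all measured genes. Foxs1, a forkhead gene of pericytes, had no UMI in PC-3F, against 49.5 CPM in PC, and Foxc2 at 9.44 CPM in PC-3F, against 85.8 CPM in PC. The orphan receptor genes Nr2f1 and Nr2f2 were at 145 CPM in PC-3F, against 391 CPM in PC, and 121 CPM in PC-3F, against 315 CPM in PC. Twist1, Prrx1, Tbx18 and Foxc1 were within 2-fold, with Foxc1 at 129 CPM in PC-3F and 162 CPM in PC.

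Of 5 measured mesothelial and epithelial genes 4 were lower in PC-3F (0% and 80%, median -4.83), and of 5 endothelial genes 4 were lower and 1 higher (20% and 80%, median -2.81), against 18% higher and 14.1% lower of all measured genes. Krt19, a keratin of simple epithelia, had no UMI in PC-3F, against 317 CPM (287 to 349) in PC, at least 67.2-fold lower. Krt20 had no UMI in PC-3F, against 149 CPM in PC, mesothelin (Msln) at no UMI in PC-3F, against 135 CPM in PC, and the junction gene Perp at no UMI in PC-3F, against 78.9 CPM in PC. Flt1, a VEGF receptor, had no UMI in PC-3F, against 234 CPM (209 to 262) in PC, at least 49.7-fold lower, and Kdr at no UMI in PC-3F, against 24 CPM in PC. The higher endothelial gene was Egfl7, at 18.9 CPM in PC-3F, against 3.87 CPM in PC, and without the filter on low values the median log2 ratio of the endothelial list was 0.52. Surface proteins of the Ly6 family, whose members resemble each other in sequence, were also lower: Ly6a (Sca-1) was at 11 CPM in PC-3F, against 768 CPM in PC, 69.7-fold lower (33.7 to 174), Ly6e at 137 CPM in PC-3F, against 1366 CPM in PC, and Ly6c1 at no UMI in PC-3F, against 64.2 CPM in PC. Cd24a was at 3.15 CPM in PC-3F, against 297 CPM in PC (2 UMIs in PC-3F), 94.4-fold lower (26 to 782). The Ly49 receptor gene Klra4 and Ctla2a, which encodes a cysteine protease inhibitor, were likewise among the lowest ratios, with Ctla2a at 9.44 CPM in PC-3F, against 752 CPM in PC, 79.7-fold lower (36.5 to 218).

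**Figure D3:**
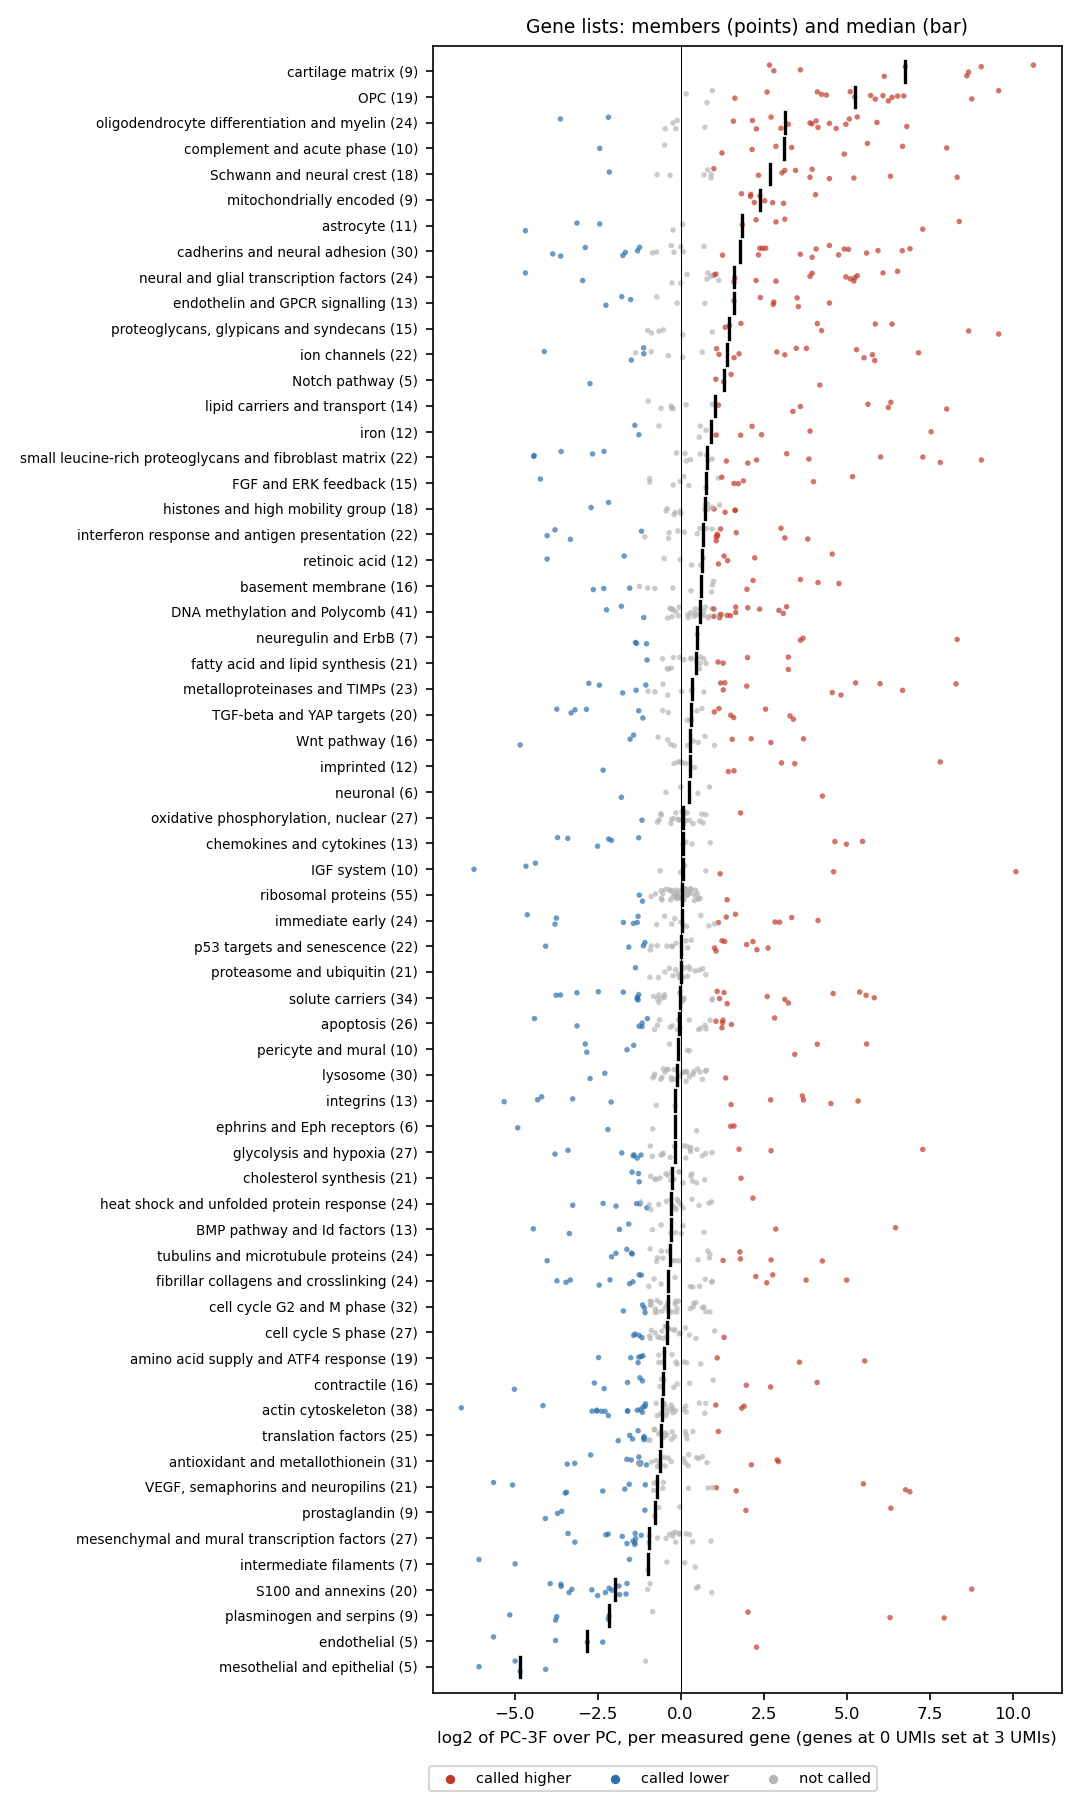
Log2 ratio of PC-3F over PC for each measured member of the gene lists with 5 or more measured members, 1 point per gene and the median as a bar, sorted by median, with the number measured in brackets. Cartilage matrix and OPC lists stand highest with medians of 6.77 and 5.25, and the mesothelial and epithelial list lowest with -4.83.

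Of 20 measured genes for S100 proteins, annexins and galectins 14 were lower and 1 higher (5% and 70%, median -1.96), against 14.1% lower of all measured genes, the higher one being S100b. S100a6 stood at 484 CPM (432 to 542) in PC-3F, against 4971 CPM (4851 to 5094) in PC, 10.3-fold lower (9.15 to 11.5). S100a4 was at 192 CPM in PC-3F, against 2323 CPM in PC, and Anxa3 at 36.2 CPM in PC-3F, against 551 CPM in PC. S100a4 differed between the barcode blocks of PC, at 656 CPM in the first and 2558 CPM in the second. Annexins 1, 2 and 5, which bind acidic membrane lipids, were lower too, with Anxa1 at 521 CPM in PC-3F, against 2503 CPM in PC and Anxa2 at 797 CPM in PC-3F, against 2488 CPM in PC. Galectin 1 (Lgals1) was at 1106 CPM in PC-3F, against 4919 CPM in PC, 4.45-fold lower (4.11 to 4.82), and the scaffold gene Ahnak at 272 CPM in PC-3F, against 2632 CPM in PC. Cluster 4 had part of the PC level: S100a6 stood at 1750.0 CPM in cluster 4 and 29.9 CPM in the other PC-3F cells. For S100a4 these levels were 714 CPM in cluster 4 and 4.28 CPM in the other PC-3F cells.

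Actin genes had 16 of 38 measured members lower and 3 higher (7.89% and 42.1%, median -0.55). Tmsb4x, which sequesters actin monomers, was at 1139 CPM (1057 to 1225) in PC-3F, against 5505 CPM (5378 to 5634) in PC, 4.83-fold lower (4.48 to 5.23), and the membrane linkers ezrin (Ezr) and moesin (Msn) were at 45.6 CPM in PC-3F, against 262 CPM in PC, and 253 CPM in PC-3F, against 766 CPM in PC. The LIM protein genes Fhl1, Crip2 and Pdlim1 were lower, Fhl1 with 1 UMI in PC-3F and 97.3-fold lower (17.3 to 3864). Beta-actin itself (Actb) was not called, at 12179 CPM in PC-3F and 14836 CPM in PC. The higher members were Marcks, its relative Marcksl1 and Pfn2, a profilin of neurons, with Marcks at 931 CPM in PC-3F, against 446 CPM in PC. Of 24 measured tubulin and microtubule genes 5 were higher and 6 lower (20.8% and 25%, median -0.32). Alpha-tubulins were lower, Tuba1a at 779 CPM in PC-3F, against 2389 CPM in PC and Tuba1b at 448 CPM in PC-3F, against 1247 CPM in PC, though reads of such near-identical genes may be divided among them. The neuronal tubulin gene Tubb2b and Map2 were higher, at 94.4 CPM in PC-3F, against 27.1 CPM in PC, and 59.8 CPM in PC-3F, against 3.09 CPM in PC. Map1b on the same list was lower. Of 6 measured genes of the neuronal list 1 was higher, Map2, and 1 lower, Nsg1 (16.7% and 16.7%, median 0.27). Of 7 measured intermediate filament genes 3 were lower and none higher (0% and 42.9%, median -0.98). Vimentin (Vim) was just within 2-fold at 3698 CPM in PC-3F and 7308 CPM in PC, and the lamin gene Lmna was lower at 447 CPM in PC-3F, against 1298 CPM in PC.

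Growth factor systems differed mainly in which member was present. Of the IGF binding proteins Igfbp2 was at 2549.6 CPM (2427 to 2677) in PC-3F, against no UMI in PC, at least 1099-fold higher, the second highest ratio of all, and Igfbp5 at 56.6 CPM in PC-3F, against no UMI in PC, its UMIs coming from 2 of 147 PC-3F cells with 63.9% from 1 cell, while Igfbp3 was at 9.44 CPM in PC-3F, against 196 CPM in PC and Igfbp6 at 4.72 CPM in PC-3F, against 119 CPM in PC. The Igfbp3 UMIs of PC came from 32 of 290 PC cells, with 20.6% from 1 cell. Igfbp3 stood at 62.5 CPM in the first and 214 CPM in the second barcode block of PC. Htra1, a secreted protease that cleaves matrix proteins and IGF binding proteins, was at 1.57 CPM in PC-3F, against 118 CPM in PC (1 UMI in PC-3F). FGF and ERK feedback genes had 6 of 15 measured members higher and 1 lower (40% and 6.67%, median 0.76). The ERK inhibitors Spry1 and Spry4 stood at 168 CPM in PC-3F, against 4.64 CPM in PC, and 164 CPM in PC-3F, against 44.1 CPM in PC, and the decoy receptor gene Fgfrl1 at 645 CPM in PC-3F, against 40.2 CPM in PC, while the receptor gene Fgfr1 was not called at 411 CPM in PC-3F and 382 CPM in PC. Of ErbB ligands, Areg and Tgfa were higher and Ereg and Hbegf lower, with Tgfa at 29.9 CPM in PC-3F, against no UMI in PC.

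Ligands of the BMP family went both ways as well. Bmp7 stood at 275 CPM in PC-3F, against 3.09 CPM in PC, 89-fold higher (34.1 to 330.2), Bmp2 at 6.29 CPM in PC-3F, against 64.2 CPM in PC, and the BMP antagonist Grem1 at no UMI in PC-3F, against 102 CPM in PC. The Id genes, which are induced by BMP, went apart: Id2 was at 479.7 CPM in PC-3F, against 65.7 CPM in PC, and Id1 at 78.6 CPM in PC-3F, against 281 CPM in PC. Among TGF-beta and YAP target genes 7 of 20 measured were higher and 6 lower (35% and 30%, median 0.32). Ctgf was at 1494 CPM in PC-3F, against 738 CPM in PC, and the excess lay in cluster 4, with 3643 CPM in cluster 4 and 723 CPM in the other PC-3F cells. Tgfbi, also called higher over the library, was among the leading genes of cluster 4 and was below its PC level in the other PC-3F cells. Ankrd1 was at 11 CPM in PC-3F, against 99.8 CPM in PC (with 319 CPM in the first and 68.8 CPM in the second barcode block of PC). Tissue factor (F3), which starts coagulation, was at 228 CPM in PC-3F, against 21.7 CPM in PC.

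Of 5 measured Notch genes 4 were higher and 1 lower (80% and 20%, median 1.30), against 18% and 14.1% of all measured genes. Jag1, Hes1, Hes6 and Notch2 were higher and Notch4 lower. The ligand Jag1 was at 99.1 CPM in PC-3F, against 5.41 CPM in PC (with 18.7 CPM in the first and 3.53 CPM in the second barcode block of PC). Wnt genes had 4 higher and 3 lower members of 16 measured (25% and 18.8%, median 0.30), Wnt5a at 127 CPM in PC-3F, against 19.3 CPM in PC and the antagonist Dkk2 at 1.57 CPM in PC-3F, against 44.9 CPM in PC. Guidance cues of the semaphorin family also split. Sema3d stood at 278 CPM in PC-3F, against no UMI in PC, Sema3b at 255 CPM in PC-3F, against no UMI in PC, and Sema6a at 105 CPM in PC-3F, against no UMI in PC, while Sema3a was at 17.3 CPM in PC-3F, against 193 CPM in PC and Sema3e at 3.15 CPM in PC-3F, against 105 CPM in PC. No hedgehog gene of the 4 measured was called (0% and 0%, median 0.23), against 18% and 14.1% of all measured genes. The neurotrophin gene Bdnf was lower, at 14.2 CPM in PC-3F, against 92 CPM in PC.

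Of 10 measured complement and acute-phase genes 8 were higher in PC-3F and 1 lower (80% and 10%, median 3.11), against 18% and 14.1% of all measured genes. Lipocalin 2 (Lcn2), which binds bacterial iron carriers and marks reactive glia, was at 601 CPM in PC-3F, against no UMI in PC, at least 259-fold higher. It was uneven over cells, with 26.4% of its UMIs from 1 cell, and stood at 1613 CPM in cluster 4 and 237 CPM in the other PC-3F cells. Complement C4b was at 239 CPM in PC-3F, against no UMI in PC, C3 at 115 CPM in PC-3F, against no UMI in PC, and the ferroxidase ceruloplasmin (Cp) at 878 CPM in PC-3F, against 197 CPM in PC. Clusterin (Clu) was the lower member, at 6.29 CPM in PC-3F, against 34 CPM in PC. Chemokines and cytokines went both ways: Cxcl1 was at 222 CPM in PC-3F, against 6.96 CPM in PC and the RANKL decoy Tnfrsf11b at 104 CPM in PC-3F, against no UMI in PC, while Cxcl12 was at 18.9 CPM in PC-3F, against 199 CPM in PC, Csf1 at 184 CPM in PC-3F, against 779 CPM in PC, and Kit ligand (Kitl) at 14.2 CPM in PC-3F, against 185 CPM in PC. Interferon and antigen presentation genes had 9 of 22 measured higher and 4 lower (40.9% and 18.2%, median 0.68). The median of this list was -0.38 against the first barcode block of PC alone and -0.21 with a filter at a mean of 50 CPM. H2-K1, a class I gene with close relatives, was at 233 CPM in PC-3F, against 111 CPM in PC, and Bst2, a tetherin, at 9.44 CPM in PC-3F, against 153 CPM in PC. Bst2 was uneven within PC, at 931 CPM in the first and 43.2 CPM in the second barcode block of PC. The prostaglandin D synthase gene Ptgds was at 187 CPM in PC-3F, against no UMI in PC, while the cyclooxygenase genes Ptgs1 and Ptgs2 were at 22 CPM in PC-3F, against 288 CPM in PC, and no UMI in PC-3F, against 56.4 CPM in PC.

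Cadherins and adhesion molecules of neural cells went both ways, with 16 of 30 measured higher and 7 lower (53.3% and 23.3%, median 1.80), against 18% and 14.1% of all measured genes. Gpm6b, a glial membrane protein gene, stood at 466 CPM in PC-3F, against 3.87 CPM in PC, 120.4-fold higher (51 to 374), the L1-family genes Chl1 and Nrcam at 238 CPM in PC-3F, against no UMI in PC, and 245 CPM in PC-3F, against 44.1 CPM in PC, and Opcml at 143 CPM in PC-3F, against no UMI in PC. Cdh2 (N-cadherin), Cdh13 and Vcam1 were lower, Vcam1 at 12.6 CPM in PC-3F, against 154 CPM in PC. Integrin alpha chains went both ways, with Itga1, Itga4, Itga8, Itga9 and Itgav higher and Itga3, Itga5 and Itga6 lower. Itgav, a receptor chain for vitronectin and fibronectin, was at 541 CPM in PC-3F, against 189 CPM in PC, and the laminin receptor chain Itga6 at 26.7 CPM in PC-3F, against 254 CPM in PC. The common beta chain Itgb1 was not called, at 903 CPM in PC-3F and 1011 CPM in PC.

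Ion channel genes had 13 of 22 measured members higher and 4 lower (59.1% and 18.2%, median 1.38), against 18% and 14.1% of all measured genes. Gjc3, a connexin of myelinating glia, stood at 333 CPM in PC-3F, against no UMI in PC, at least 144-fold higher. The inward rectifier Kcnj10, which buffers potassium in glia, was at 91.2 CPM in PC-3F, against no UMI in PC, and the potassium channel gene Kcna6 at 134 CPM in PC-3F, against no UMI in PC. The glutamate receptor genes Grik3 and Gria3 were at 107 CPM in PC-3F, against no UMI in PC, and 124 CPM in PC-3F, against 55.7 CPM in PC. The sodium pump subunit Atp1b2, known from glia, was at 780.1 CPM in PC-3F, against no UMI in PC, at least 336-fold higher. Of the solute carriers Slc44a1, a choline transporter, was at 168 CPM in PC-3F, against 6.96 CPM in PC, while the glucose transporter Slc2a3 had no UMI in PC-3F, against 63.4 CPM in PC.

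Iron genes stood out by amount. Transferrin (Trf), the iron carrier that oligodendrocytes make, was at 6222 CPM (6029.8 to 6419) in PC-3F, against 33.3 CPM (24.1 to 44.8) in PC, 187-fold higher (139 to 259), and the cells within and outside cluster 4 both had it, at 3470.3 CPM in cluster 4 and 7210.5 CPM in the other PC-3F cells. The ferritin heavy chain gene Fth1 was at 16197 CPM (15886 to 16513) in PC-3F, against 7699.6 CPM (7549 to 7852) in PC, though with only codes of sure counts its log2 ratio was -0.38. The light chain gene Ftl1, which has many processed copies in the genome, was at 197 CPM in PC-3F, against 510.4 CPM in PC, but its log2 ratio against the first barcode block of PC was 0.12. The iron importer Slc11a2 was at 138 CPM in PC-3F, against 25.5 CPM in PC. Apod, a lipid-binding lipocalin of glia, was at 2125 CPM in PC-3F, against 42.5 CPM in PC, 50-fold higher (38.2 to 66.7). It stood at 5399 CPM in cluster 4 and 949 CPM in the other PC-3F cells, and at 169 CPM in the first and 24.7 CPM in the second barcode block of PC. Cholesterol synthesis genes had 1 higher and 3 lower of 21 measured (4.76% and 14.3%, median -0.27). Fatty acid genes had 5 higher and 1 lower of 21 (23.8% and 4.76%, median 0.47), among them Elovl7, a fatty acid elongase, at 66.1 CPM in PC-3F, against 6.96 CPM in PC.

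All 9 measured mitochondrially encoded genes were higher (100% and 0%, median 2.39), with mt-Cytb at 2896 CPM (2765 to 3031) in PC-3F, against 424 CPM (389 to 461) in PC. Its level was higher outside cluster 4, at 804 CPM in cluster 4 and 3647 CPM in the other PC-3F cells. Of 27 measured nuclear genes of oxidative phosphorylation 1 was higher and 1 lower (3.7% and 3.7%, median 0.07), against 18% and 14.1% of all measured genes. The higher one was Sdhb at 222 CPM in PC-3F, against 63.4 CPM in PC. The lower one was Cycs at 31.5 CPM in PC-3F, against 70.4 CPM in PC. The part of RNA quality in the mitochondrial difference was not tested. Glycolysis and hypoxia genes had 3 higher and 7 lower of 27 measured (11.1% and 25.9%, median -0.18). Aldoc, the brain form of aldolase, was at 486 CPM in PC-3F, against 3.09 CPM in PC, 157-fold higher (60.8 to 580.3), and the lactate dehydrogenase chain Ldhb at 102 CPM in PC-3F, against 15.5 CPM in PC, while Tpi1 was at 189 CPM in PC-3F, against 507 CPM in PC. Antioxidant and metallothionein genes were lower in 10 and higher in 3 of 31 measured (9.68% and 32.3%, median -0.61), the metallothioneins Mt1 and Mt2 at 404 CPM in PC-3F, against 1134 CPM in PC, and 84.9 CPM in PC-3F, against 555 CPM in PC.

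Of 55 ribosomal protein genes 1 was higher and 2 lower, of 21 measured proteasome and ubiquitin genes 0 was higher and 1 lower, and of 30 lysosomal genes 1 was higher and 2 lower. These shares lay below the 18% and 14.1% of all measured genes, while translation factors, with 1 higher and 7 lower of 25 (4% and 28%, median -0.60), did not share this in the lower direction. Genes of the S phase had 1 higher and 4 lower members of 27 (3.7% and 14.8%, median -0.42), and of G2 and mitosis 0 higher and 4 lower of 32 (0% and 12.5%, median -0.39). Mki67, a marker of dividing cells, was at 121 CPM in PC-3F and 76.6 CPM in PC, within 2-fold, and Ccnd2 was lower at 198 CPM in PC-3F, against 444 CPM in PC. Of the p53 list Cdkn1b, the cell cycle inhibitor p27, was higher at 154 CPM in PC-3F, against 34 CPM in PC, and Cdkn1a (p21) was not called at 255 CPM in PC-3F and 339 CPM in PC. Hmga2, a chromatin protein of embryonic cells, was lower at 109 CPM in PC-3F, against 703 CPM in PC, 6.48-fold lower (5.07 to 8.4). Genes of DNA methylation and Polycomb had 13 higher and 3 lower of 41 measured (31.7% and 7.32%, median 0.59), the higher ones including Tet1, Tet3 and Chd7, with Chd7 at 132 CPM in PC-3F, against 15.5 CPM in PC. Among immediate early genes Ier3 and Fos were higher and Fosl1 lower, with Fosl1 at 14.2 CPM in PC-3F, against 347 CPM in PC, 24.5-fold lower (12.8 to 54).

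Per cell, the same genes marked many or few cells. With each cell thinned to 1000 UMIs, which left out 1 PC-3F and 23 PC cells, Serpine2 was seen in 98.6% of PC-3F cells (95.1 to 99.8) and 6.74% of PC cells (4.04 to 10.4). Col9a1 was seen in 82.9% of PC-3F cells (75.8 to 88.6) and 0% of PC cells (0 to 1.37) and Erbb3 in 51.4% of PC-3F cells (43 to 59.7) and 0% of PC cells (0 to 1.37). S100a6 was seen in 18.5% of PC-3F cells (12.6 to 25.8) and 95.1% of PC cells (91.8 to 97.4) and Efemp1 in 4.11% of PC-3F cells (1.52 to 8.73) and 77.9% of PC cells (72.4 to 82.7). Krt19 was seen in 0% of PC-3F cells (0 to 2.5) and 21.7% of PC cells (16.9 to 27.2) and Flt1 in 0% of PC-3F cells (0 to 2.5) and 16.9% of PC cells (12.6 to 21.9). Without thinning Serpine2 was seen in 99.3% of PC-3F cells and 11.7% of PC cells, Col9a1 in 85.7% of PC-3F cells and 0% of PC cells, Erbb3 in 81.6% of PC-3F cells and 0% of PC cells and S100a6 in 28.6% of PC-3F cells and 99.7% of PC cells. Krt19 was seen without thinning in 0% of PC-3F cells and 38.3% of PC cells and Flt1 in 0% of PC-3F cells and 44.1% of PC cells, so at 1000 UMIs many PC cells that had a UMI of either gene were not counted.

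**Figure D4:**
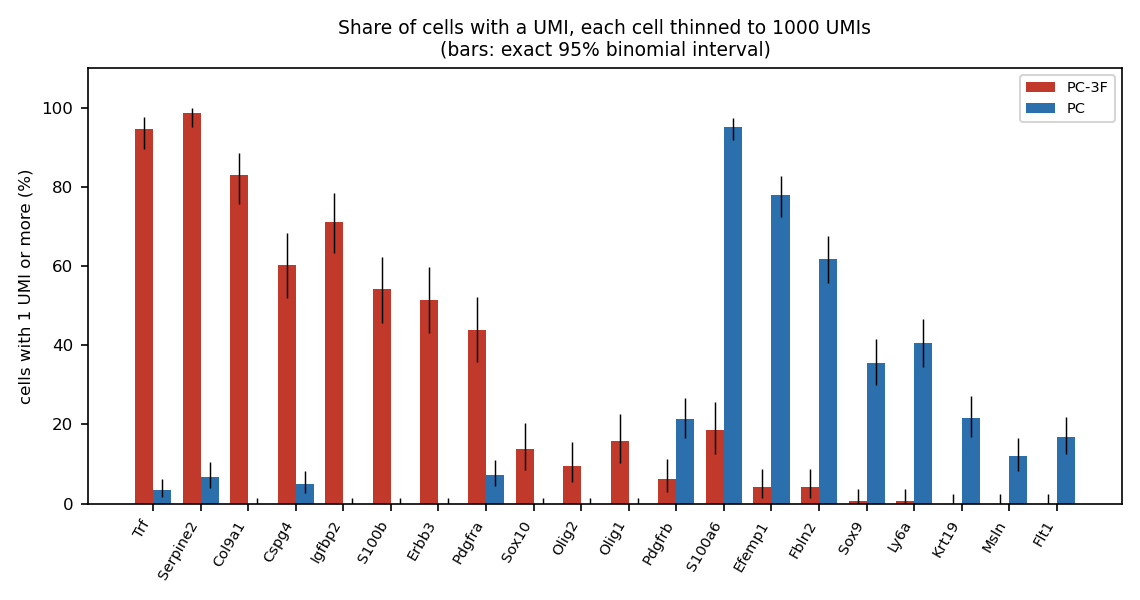
Percentage of cells with 1 UMI or more of a gene after every cell was thinned to 1000 UMIs, in PC-3F (red, 146 cells) and PC (blue, 267 cells), with exact 95% binomial intervals. Serpine2 was seen in 98.6% of PC-3F cells and 6.74% of PC cells, and S100a6 in 18.5% of PC-3F cells and 95.1% of PC cells.

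Several genes that PC expressed and the other PC-3F cells nearly lacked lay in cluster 4. Spp1 (osteopontin), the strongest leading gene of the cluster, was not called over the whole library at 5689 CPM in PC-3F and 11335 CPM in PC, yet stood at 21197 CPM in cluster 4 and 119.7 CPM in the other PC-3F cells. Thy1 was called higher over the library at 142 CPM in PC-3F, against 34.8 CPM in PC but stood at 529.8 CPM in cluster 4 and 2.14 CPM in the other PC-3F cells, so without cluster 4 it was below PC. Outside cluster 4 the level of Efemp1 was 0 UMIs, with 309.5 CPM in the cluster, and that of Fbln2 was 179 CPM in cluster 4 and 4.28 CPM in the other PC-3F cells. Genes with levels in both included Serpine2 at 4970.3 CPM in cluster 4 and 6388 CPM in the other PC-3F cells, Col3a1 at 1238 CPM in cluster 4 and 1268 CPM in the other PC-3F cells and Col1a2 at 2529.8 CPM in cluster 4 and 4729 CPM in the other PC-3F cells. Of genes that PC lacked, these were present in cluster 4 at lower levels, Erbb3 at 250.0 CPM in cluster 4 and 926 CPM in the other PC-3F cells and Igfbp2 at 399 CPM in cluster 4 and 3322 CPM in the other PC-3F cells. Whether RNA from other droplets contributed to these was not tested.

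**Figure D5:**
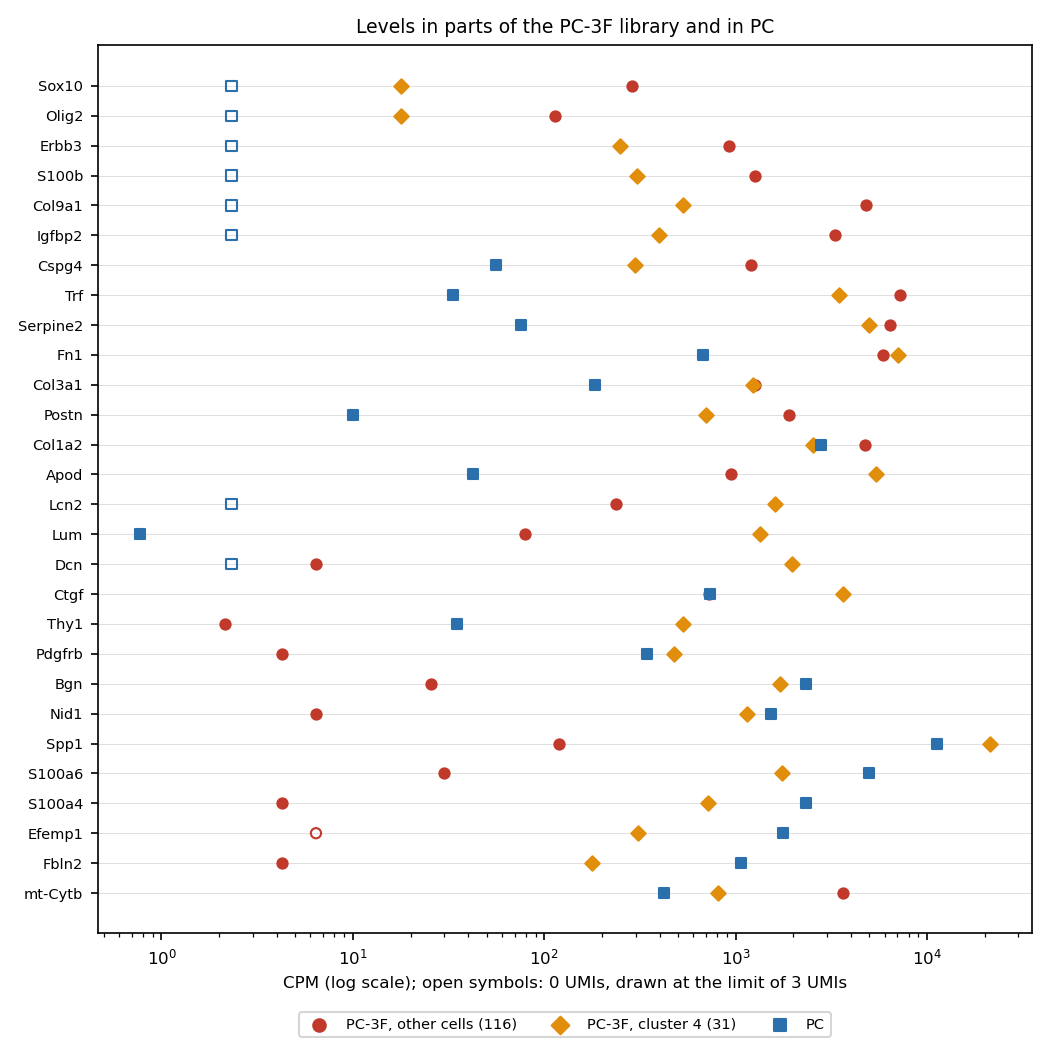
Levels (CPM, log axis) in the 116 PC-3F cells outside cluster 4 (red circles), the 31 cells of cluster 4 (orange diamonds) and PC (blue squares), with open symbols for 0 UMIs drawn at the limit of 3 UMIs. Spp1, Nid1, Bgn and S100a6 of cluster 4 stand near the PC squares and far right of the other PC-3F cells, while Sox10, Col9a1 and Igfbp2 are highest in the other PC-3F cells.

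Levels in the pericytes that received Olig2 and Sox10 without Nkx6.2 (PC-2F) and in primary OPCs (pOPC), 1 library each, are set beside those of PC-3F without a test, first for the 10 nuclear genes with the highest level in PC-3F among those called higher. Fth1 was at 16197 CPM in PC-3F, 10141 CPM in PC-2F and 843 CPM in pOPC, against 7699.6 CPM in PC, Trf at 6222 CPM in PC-3F, 5868 CPM in PC-2F and no UMI in pOPC, against 33.3 CPM in PC and Fn1 at 6199 CPM in PC-3F, 6615 CPM in PC-2F and 3.16 CPM in pOPC, against 676 CPM in PC. Serpine2 was at 6013 CPM in PC-3F, 5600.3 CPM in PC-2F and 814 CPM in pOPC, against 75.8 CPM in PC, the tetraspanin gene Cd81 at 4391 CPM in PC-3F, 3449 CPM in PC-2F and 718 CPM in pOPC, against 804 CPM in PC and Sulf2, which trims heparan sulfate, at 2213 CPM in PC-3F, 1727 CPM in PC-2F and 336 CPM in pOPC, against 326 CPM in PC. Col9a1 was at 3671 CPM in PC-3F, 1803 CPM in PC-2F and 22.1 CPM in pOPC, against no UMI in PC and Col11a1 at 3097 CPM in PC-3F, 4117 CPM in PC-2F and 229 CPM in pOPC, against 44.1 CPM in PC. Serpina3n was at 2658 CPM in PC-3F, 5290.3 CPM in PC-2F and no UMI in pOPC, against 10.8 CPM in PC and Igfbp2 at 2549.6 CPM in PC-3F, 95.8 CPM in PC-2F and 179.9 CPM in pOPC, against no UMI in PC. Of these genes Trf and Serpina3n had no UMI in pOPC and Fn1 and Col9a1 stood low there, while Fth1, Serpine2 and Cd81 were expressed in pOPC as well. Glial genes, chosen after their values were seen, differed among themselves. Pdgfra was at 536 CPM in PC-3F, 371 CPM in PC-2F and 1372 CPM in pOPC, against 88.2 CPM in PC, Sox10 at 215 CPM in PC-3F, 251 CPM in PC-2F and 590.2 CPM in pOPC, against no UMI in PC and Cspg5 at 593 CPM in PC-3F, 381 CPM in PC-2F and 524 CPM in pOPC, against 0.773 CPM in PC, each present in pOPC, whereas Erbb3 was at 747 CPM in PC-3F, 478 CPM in PC-2F and 3.16 CPM in pOPC, against no UMI in PC. Lcn2 was at 601 CPM in PC-3F, 3332 CPM in PC-2F and no UMI in pOPC, against no UMI in PC.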

How the data were processed

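Cells were dissociated with trypsin-EDTA, captured on the ddSEQ system and made into 3′ libraries with UMIs, per the labels' protocols. Per the submitters' processing notes, which give no order or settings, reads went through featureCounts 1.6.1, STAR 2.5.3a, UMI-tools 0.5.3 and bcl2fastq 2.19.1.403 with the mm10 genome. How strand and reads of near-identical genes were counted is not given in the sources used here, so levels in multigene families (tubulins, Ly6, class I, serpins, ribosomal proteins) and of overlapping genes are uncertain.

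The values deposited by the authors are of another kind than UMI counts (unit: other). Each was read as the place, from 0, of a UMI count among all counts that occur in its block of barcodes, sorted as text. To recover counts, the codes of a block were aligned with whole numbers in text order under a model in which count frequencies vary smoothly. Codes read with a probability over 0.99 carried 96.9% of UMIs in PC-3F and, in the PC blocks, 95.7% and 97.8%. Large counts are the least certain. Decoding and comparison were checked on simulated data, which share this reading and do not test it.

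Barcodes with 500 or more UMIs and a mitochondrial share under 20% were kept, and 6 PC barcodes fell out. Doublets were not called or removed. Levels have exact Poisson intervals, folds exact binomial intervals conditional on the sum of UMIs, and shares exact (Clopper-Pearson) intervals, all at 95% and for counting error only. A library at 0 UMIs was set at 3 UMIs per library, and such a fold is given as "at least". It is the ratio at that setting and not the limit of its counting interval, which can lie lower, as for Col9a1 at 1286-fold. With 1 library per population no test exists, and lists are described by counts, with shares and medians for most, which stand beside those of all measured genes.

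PC-3F cells were clustered alone (scanpy 1.11.5, Leiden). Thinning drew 1000 UMIs per cell without replacement. The rule for naming genes took the 25 largest ratios in each direction (intervals wholly beyond 2-fold, 100 CPM and 30 UMIs in the higher library), up to 4 called members of each list per direction, and a short list of standard markers. Of 223 genes with a level in the text 53 fall outside this rule and were chosen after their values were seen. Some named genes are not reported here. The libraries compared, the gene lists and the alternatives were chosen with earlier results of these data known. Coordinates are from GENCODE M21 (GRCm38, the assembly of mm10).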

Additional observations from a re-analysis of the deposited data

How the results depend on the processing

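No paired analysis was possible because each population is 1 library and the labels share no replicate numbers that could pair cells, and leaving out a replicate was not possible for the same reason. Of 13 other settings, the filter at a mean of 50 CPM moved the counts most, to 622 genes higher and 586 lower of 4428 measured, because fewer genes were tested. Without a filter 2116 were higher and 1389 lower. Scaling by a trimmed mean of log ratios shifted all ratios by 0.06 on the log2 scale and gave 1543 higher and 1401 lower. Against the first barcode block of PC alone 1150 were higher and 1076 lower, of which 840 and 739 were also called in the comparison with all PC barcodes. With the deposited values taken as they stand 1931 were higher and 1900 lower, 1229 and 1002 of them shared. Without the cells of cluster 4 the counts were 1733 and 1473, with 1458 and 1153 shared and 3 genes turned from higher to lower.

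Of the called genes whose levels are given, these changed sign. Thy1 had a log2 ratio of -4.02 and Ctgf of -0.031 without cluster 4, and Ctgf was at -0.16 with the deposited values as they stand. Fth1 was at -0.38 with only codes of sure counts, a setting that drops large counts, and Ftl1 at 0.12 against the first block of PC. Many other ratios moved in size, beyond the counting interval of the main comparison. Of 223 genes with a level in the text, 137 moved so against the first block of PC. With the deposited values as they stand 100 did, and without cluster 4 77 did. Of lists with a median beyond 0.5 on the log2 scale, the median of the fibroblast matrix list changed sign without cluster 4, that of the interferon list at the 50 CPM filter and against the first block of PC, those of the serpin and the endothelin and GPCR lists at the 50 CPM filter, and those of the endothelial and neurotrophin lists without a filter. The PDGF list changed sign at 4 settings and the Hox list at 2, each with 4 measured genes. The causes of the other changes of sign were not tested.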

Other observations

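Further genes were among the 25 highest ratios. Ncald, which encodes the calcium sensor neurocalcin delta, stood at 412 CPM in PC-3F, against 0.773 CPM in PC (1 UMI), 533-fold higher (94.8 to 21128). Enpp2 (autotaxin), the enzyme that makes lysophosphatidic acid and is abundant in oligodendrocytes, was at 472 CPM in PC-3F, against no UMI in PC, with 21% of its UMIs from 1 cell, and Col20a1, a fibril-associated collagen gene, at 511 CPM in PC-3F, against no UMI in PC. The tetraspanin gene Tspan7 was at 461 CPM in PC-3F, against no UMI in PC, and Plekhb1 at 449.8 CPM in PC-3F, against 2.32 CPM in PC (3 UMIs). Clca2 and Tmem88b each had 1 UMI in PC.

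Among the 25 lowest ratios, Rai14, an actin-associated protein gene, was at 1.57 CPM in PC-3F, against 176 CPM in PC (1 UMI in PC-3F), 112-fold lower (19.9 to 4447). The sphingomyelin synthase gene Sgms2 was at 3.15 CPM in PC-3F, against 154 CPM in PC, Emilin2, which encodes an elastic fibre glycoprotein, at 6.29 CPM in PC-3F, against 173 CPM in PC, and Prune2 at 12.6 CPM in PC-3F, against 258 CPM in PC. Ankrd29 had no UMI in PC-3F and stood at 154 CPM in PC.

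Further lists split as follows, with shares called higher and lower and the median log2 ratio in brackets, against 18%, 14.1% and 0.04 over all measured genes. Heat shock and unfolded protein genes had 1 higher and 6 lower of 24 measured (4.17% and 25%, median -0.28), and amino acid supply genes 3 and 6 of 19 (15.8% and 31.6%, median -0.49). Apoptosis genes had 6 higher and 6 lower of 26 (23.1% and 23.1%, median -0.04), and p53 and senescence genes 8 and 4 of 22 (36.4% and 18.2%, median 0.01). Retinoic acid genes had 5 higher and 2 lower of 12 (41.7% and 16.7%, median 0.64), with the receptor gene Rxrg, expressed in the oligodendrocyte lineage, at 55 CPM in PC-3F, against no UMI in PC and the retinoid-synthesizing enzyme Aldh1a1 at 363 CPM in PC-3F, against 136 CPM in PC. Imprinted genes had 5 higher and 1 lower of 12 (41.7% and 8.33%, median 0.29), with Grb10 at 134 CPM in PC-3F, against 16.2 CPM in PC and Peg10 at 6.29 CPM in PC-3F, against 31.7 CPM in PC. Of the amino acid list Eif4ebp1 was at 64.5 CPM in PC-3F, against 357 CPM in PC.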
